A study of Homo sapiens with 9 samples.

Results

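ARGLU1 (ENSG00000134884), on the minus strand of chromosome 13 at chr13:107194021-107220485 in hg19, carried 25 of the 24037 QKI-5 peaks in the deposited list. A peak was counted as an ARGLU1 peak where it lay on the strand of the gene and its centre fell inside the annotated span of 26465 nt. The gene was chosen by peak height: 6 of its 25 peaks stood among the tallest 1% of the list, at or above a height of 229, as did 243 peaks, or 1.01%, of the whole list. Heights and the crowding of peaks on this gene are therefore given as a description, without a test. The lowest ARGLU1 height inside that limit was 235 and the highest outside it was 174. No peak lay on the opposite strand of the span.

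The list came from HITS-CLIP, in which RNA is crosslinked to protein by ultraviolet light, immunoprecipitated and sequenced. The cells were mesHMLE, a human mammary epithelial line (HMLE) brought to a mesenchymal state by TGF-beta1 at 2.5 ng/ml for at least 14 days, and crosslinked at 600 mJ per cm2. An antibody to QKI-5 gave 7 libraries, 3 from the monomer and 4 from the dimer region of the gel, and the reference was 2 size-matched input libraries. All 9 libraries came from cells with the same treatment, their labels number 3 technical replicates, and 1 immunoprecipitation library was reverse transcribed with SuperScript IV in place of AffinityScript. The libraries were pooled before peaks were called, so each height is 1 value with no spread between replicates, the depth of each library is unknown, and no ARGLU1 value can be given by library. A peak list holds no expression levels, so the cell type was not checked against marker genes.

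QKI is a STAR-family RNA-binding protein, and QKI-5 is its nuclear isoform. It recognises ACUAAC, written here as ACTAAC in DNA letters, helped by a nearby half-site UAAY (TAAC or TAAT), and its position beside an exon is known to influence whether that exon is spliced in. ARGLU1, the arginine- and glutamate-rich protein 1, is a nuclear protein that modulates splicing and binds the Mediator subunit MED1. Its intron 2 is known for an ultraconserved element with an alternative exon, and RNAs that keep the intron or include the exon are known as forms that yield little ARGLU1 protein.

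The peaks that carry the description are printed 5′ to 3′ on the RNA strand, from the GRCh37 reference and in DNA letters. Numbers count the 25 peaks from the 5′ end of the gene. The first set holds the 6 peaks among the tallest 1%, all in intron 2, and peak 20, which is shown because it holds 1 of the 2 ACTAAC hexamers under ARGLU1 peaks. Capitals mark the hexamers ACTAAC and ACTAAT and the half-sites TAAC and TAAT.
peak 7 (chr13:107211635-107211840, minus strand, hg19): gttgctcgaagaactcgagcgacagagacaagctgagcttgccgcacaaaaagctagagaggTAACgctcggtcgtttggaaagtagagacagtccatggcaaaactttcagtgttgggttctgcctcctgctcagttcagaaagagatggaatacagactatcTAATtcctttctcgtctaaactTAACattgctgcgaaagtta
peak 10 (chr13:107211410-107211490, minus strand, hg19): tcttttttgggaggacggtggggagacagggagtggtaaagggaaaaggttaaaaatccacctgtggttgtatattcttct
peak 12 (chr13:107211145-107211289, minus strand, hg19): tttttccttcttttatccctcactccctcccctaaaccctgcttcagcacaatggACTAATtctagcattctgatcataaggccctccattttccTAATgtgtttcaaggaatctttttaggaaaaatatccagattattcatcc
peak 13 (chr13:107211050-107211138, minus strand, hg19): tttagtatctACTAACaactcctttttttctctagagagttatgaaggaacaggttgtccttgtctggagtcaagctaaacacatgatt
peak 14 (chr13:107210909-107211048, minus strand, hg19): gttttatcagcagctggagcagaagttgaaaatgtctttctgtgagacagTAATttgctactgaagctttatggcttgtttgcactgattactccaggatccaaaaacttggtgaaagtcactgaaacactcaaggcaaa
peak 17 (chr13:107210426-107210496, minus strand, hg19): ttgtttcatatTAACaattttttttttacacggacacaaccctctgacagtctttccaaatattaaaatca
peak 20 (chr13:107210094-107210152, minus strand, hg19): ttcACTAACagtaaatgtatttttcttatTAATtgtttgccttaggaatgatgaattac
Peak 23 is shown because it lies on the alternative exon of intron 2, and capitals mark bases of that exon, whereas the lower-case bases are the end of the intron before it.
peak 23 (chr13:107209912-107209975, minus strand, hg19): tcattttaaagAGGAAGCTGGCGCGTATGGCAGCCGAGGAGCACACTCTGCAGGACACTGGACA

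The peaks of ARGLU1 were gathered in intron 2. By the canonical transcript, which has 4 exons, 17 of 25 peaks (68%, 95% Wilson interval 48.4 to 82.8%) had their centre in intron 2 (chr13:107209480-107211779), which is 2300 nt long and makes up 8.69% of the gene. The interval treats the peaks as independent, which neighbouring peaks are not. These 17 peaks held 95.3% of the summed height of all ARGLU1 peaks. Intron 1, of 7915 nt, held 0 peaks, and intron 3, of 12887 nt, held 1 peak of height 21. Intron 2 was thus 9.96% of the intronic length of the gene and held 17 of its 18 intronic peaks. In all, 18 of 25 ARGLU1 peaks (72%, 95% Wilson interval 52.4 to 85.7%) were intronic, beside 84.7% of the peaks in protein-coding genes of the whole list.

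**Figure D1:**
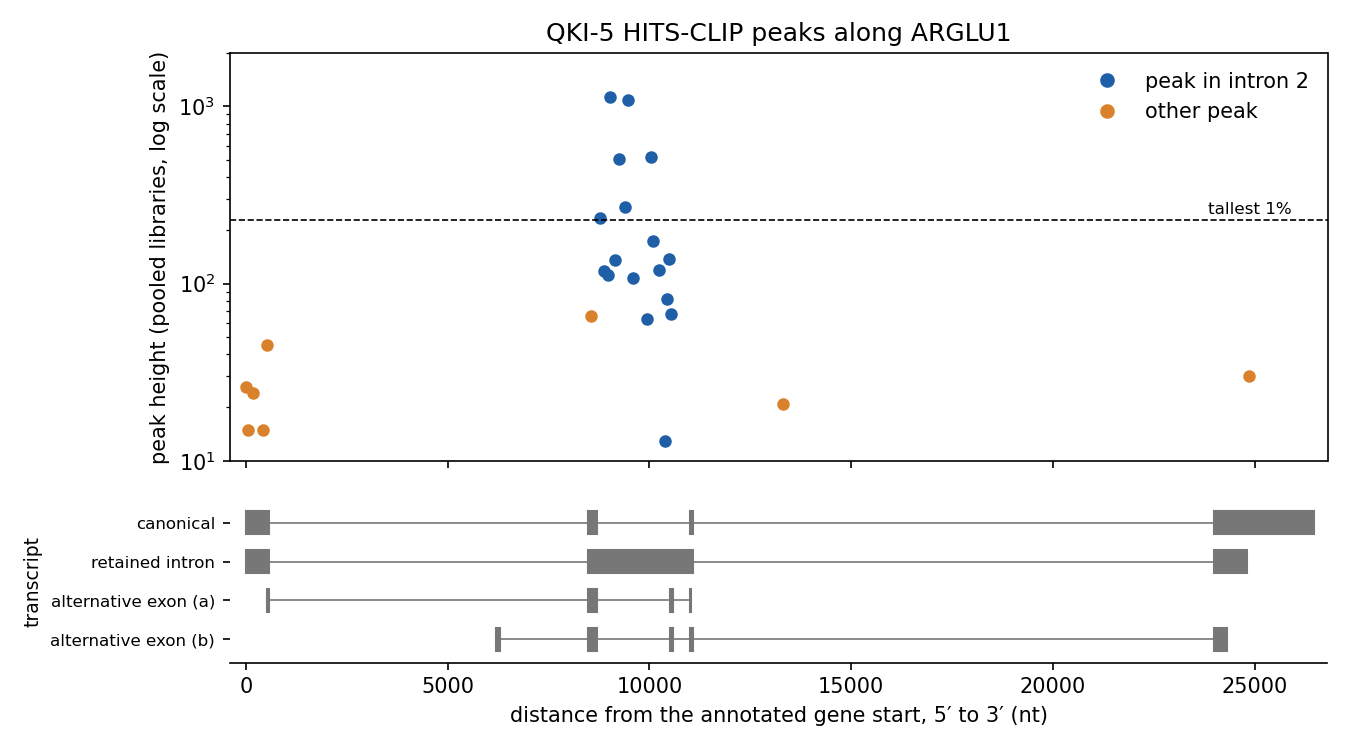
Height of the 25 QKI-5 peaks of ARGLU1 (upper panel, log scale, 1 value per peak from the pooled libraries) against the distance of their summit from the annotated gene start in nt, with the exons of 4 transcripts below as boxes. All 6 peaks above the dashed line at a height of 229 lie in intron 2 (blue), and the tallest of the 8 other peaks (orange) reaches 66.

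Outside intron 2 the peaks were low. The 8 peaks there had heights of 15 to 66 with a median of 25, near the median of 23 over the nuclear peaks of the list, whereas the 17 peaks of intron 2 had heights of 13 to 1136 with a median of 136. The heights overlapped between both sets, because peak 20 of intron 2, at 13, was the lowest of all ARGLU1 peaks. The tallest peak of intron 2 was 17.2 times as high as the tallest peak elsewhere in the gene. Of the 17 peaks in intron 2, 16 lay above the median of the list. How much ARGLU1 RNA these cells held, spliced or with intron 2 kept, was not measured here, and more RNA and more binding per RNA cannot be told apart in a height.

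Exon 1 (chr13:107219921-107220485, 565 nt) carried 5 low peaks. Peaks 1 to 5 had heights of 26, 15, 24, 15 and 45, and together they covered 47.3% of the exon. Peaks 1 to 3 were centred in the 5′UTR and peaks 4 and 5 in coding sequence, and peak 1 began 26 nt before the annotated start of the gene. None of the 5 held TAAC or TAAT, and exon 1 as a whole held 0 of these half-sites at a GC content of 66.7%. Exon 2 (chr13:107211780-107212005, 226 nt, coding) had 1 peak, peak 6, of height 66, and with the part of peak 7 that reached into it 75.7% of the exon was covered. Exon 3 (84 nt) had no peak. Exon 4 (2488 nt) had 1 peak of height 30 in the 3′UTR, 50 nt wide, and the single ACTAAC of that exon lay outside it, 178 nt from its summit.

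Within intron 2 the peaks followed each other almost without a break. Of 16 neighbouring pairs of peaks in the intron, 14 were at most 10 nt apart and 7 were 1 nt apart, and summits were 41 to 334 nt from the next with a median of 98 nt. Peaks covered 1607 nt, or 69.9%, of the intron. The widest gap, of 193 nt, lay between peaks 15 and 16, and the next, of 33 nt, between peaks 16 and 17. When peaks at most 10 nt apart were joined, a choice made after seeing the data, the 25 peaks became 8 regions, the longest of which ran for 1134 nt from exon 2 into intron 2 and held 10 peaks, while another ran for 585 nt up to the alternative exon and held 7. Neighbouring summits of 1 run may share crosslinked fragments and are not independent sites.

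The coverage began at exon 2 and stopped at the alternative exon. The alternative exon (chr13:107209907-107209964, 58 nt) belongs to 2 other transcripts, both annotated without a defined coding sequence, and lies 1815 nt past exon 2 and 427 nt before exon 3. In the 1815 nt before it there were 16 peaks covering 85.6% of the sequence. Peak 23, of height 67, covered 53 of the 58 nt of the exon and 11 nt before it, so it spanned the 3′ splice site. In the 427 nt between the alternative exon and exon 3 there was no peak. A further transcript, annotated as a retained intron, has 1 exon that spans intron 2 whole, so that with exons of any transcript 1 of 25 ARGLU1 peaks (4%), peak 24 in intron 3, remained intronic.

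**Figure D2:**
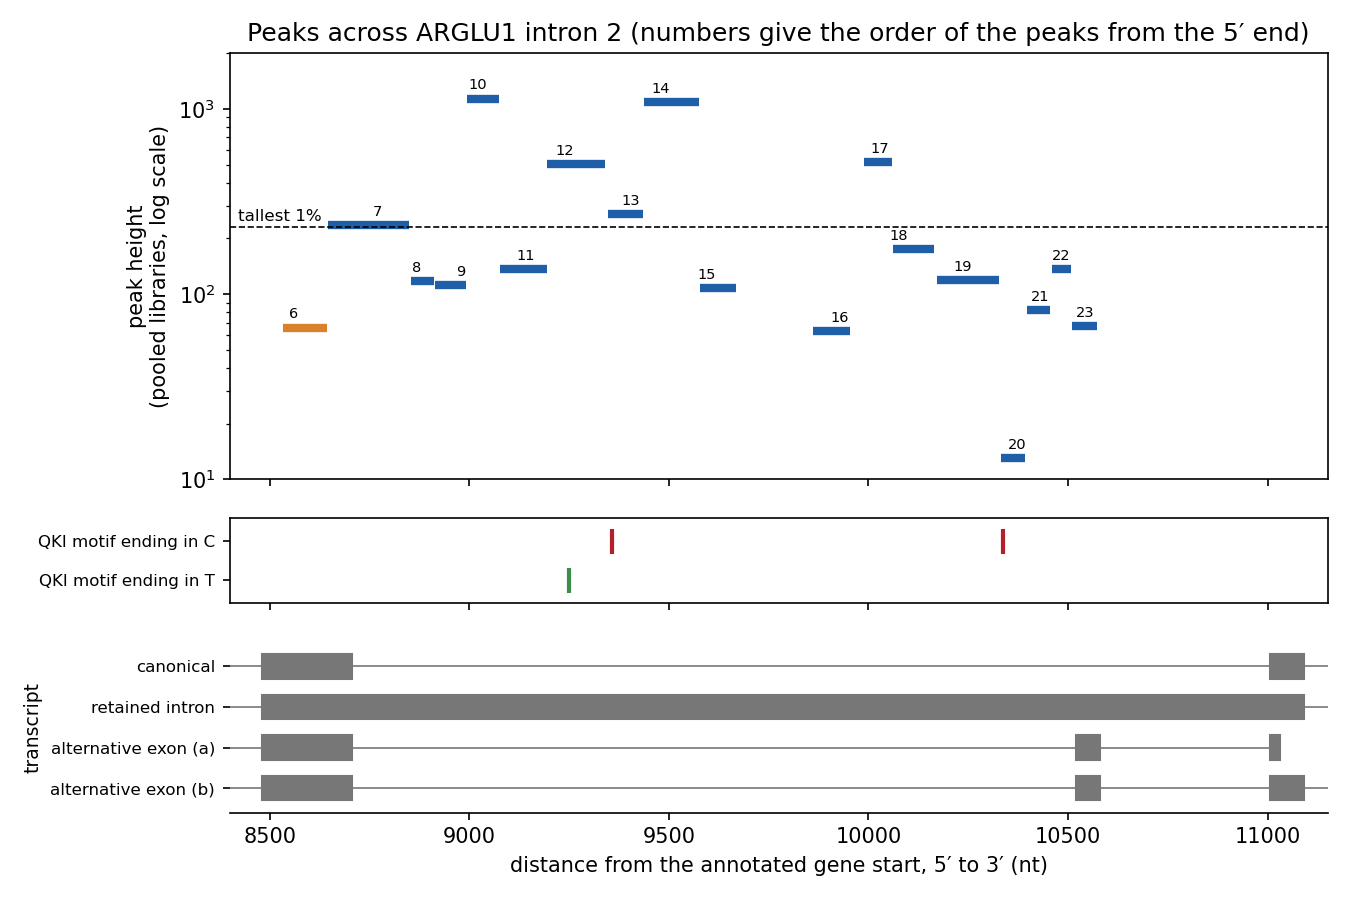
Intron 2 of ARGLU1 at larger scale: each bar spans a peak at its height (log scale, pooled libraries) against distance from the annotated gene start in nt, ticks in the middle panel give ACTAAC (red) and ACTAAT (green) on the RNA strand, and exons of 4 transcripts are boxes. Peaks 7 to 23 run from the end of exon 2 to the alternative exon, the 427 nt after it hold none, and the 3 ticks all fall in peaks, namely peaks 12, 13 and 20.

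The summits of the 6 tallest peaks lay between 64 and 1322 nt past exon 2, in an intron of 2300 nt. Of these summits, the nearest to the alternative exon lay 494 nt before it. Peak 7, of height 235 and rank 227 in the list, was 206 nt wide and crossed the 5′ splice site of exon 2, with its summit 64 nt past the exon. The first half-site in capitals in its sequence is a TAAC at bases 2 to 5 of intron 2, so it lies in the 5′ splice site itself. Peak 10 was the tallest, with a height of 1136 and rank 15, and its summit lay 315 nt past exon 2. Peak 14 was nearly as tall, with a height of 1093 and rank 17, and its summit lay 775 nt past exon 2. Peaks 10 and 14 together held 43.5% of the summed height of ARGLU1.

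Between them stood peak 12, of height 503 and rank 66, with its summit 533 nt past exon 2, and peak 13, of height 270 and rank 186, with its summit at 699 nt. Peak 17, of height 518 and rank 62, was the only 1 of the 6 beyond the widest gap, with its summit 1322 nt past exon 2. The 6 peaks held 73.3% of the summed height of the gene, so most of the height came from the stretch between exon 2 and 775 nt past it, together with peak 17. The other 11 peaks of intron 2 ranged from 13 to 174. Nearest to the alternative exon, peak 22 had a height of 137 with its summit 39 nt before the exon, and peak 21 a height of 82 with its summit 91 nt before it.

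**Figure D3:**
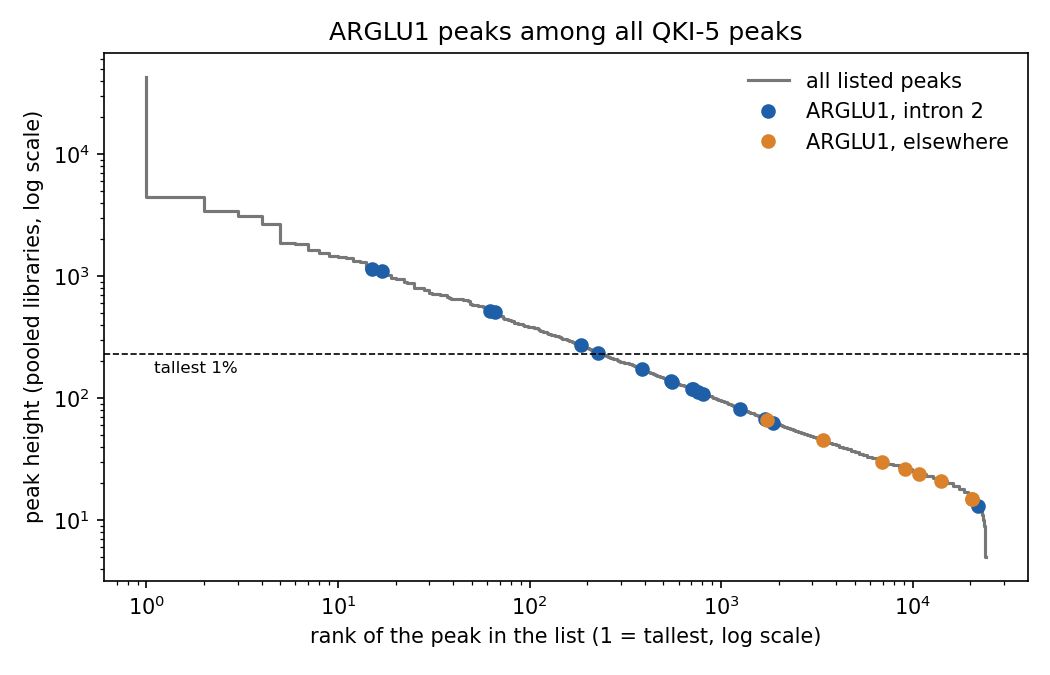
Height of every listed peak against its rank in the list (grey line, both axes logarithmic), with the ARGLU1 peaks of intron 2 in blue and its other peaks in orange. The 6 blue points above the dashed line at 229 have ranks 15 to 227, and the lowest ARGLU1 peak, at a height of 13, has rank 21841.

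The share of ARGLU1 peaks with the QKI hexamer was near that of the list. ACTAAC was found in 2 of 25 ARGLU1 peaks (8%, 95% Wilson interval 2.22 to 25%), beside 10.1% of all nuclear peaks. With ACTAAT counted too it was 3 of 25 (12%, interval 4.17 to 30.0%), beside 13.7% of nuclear peaks. Both intervals contain the share of the list, so no difference was detectable with 25 peaks. The intervals cover counting error only and treat the peaks as independent, which neighbouring peaks of intron 2 are not. All 3 hexamers were in intron 2: ACTAAC in peak 13, 45 nt from its summit, ACTAAC in peak 20, 35 nt from its summit, and ACTAAT in peak 12, 15 nt from its summit.

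Among the 6 tallest ARGLU1 peaks 2 held a hexamer, ACTAAT in peak 12 and ACTAAC in peak 13. The tallest, peak 10, held neither hexamer and no half-site, as its printed sequence without capitals shows, and peak 14, next in height, held 1 TAAT alone. Peak 20, the lowest ARGLU1 peak, higher than 6.25% of the list, held ACTAAC followed by a TAAT within 20 nt, the only 1 of the 3 hexamers in ARGLU1 peaks with a half-site so near. Among the 6 tallest ARGLU1 peaks 1 held ACTAAC (16.7%, 95% Wilson interval 3.01 to 56.4%), beside 39 of 228 (17.1%) of the tallest 1% outside ARGLU1 and 31 of 103 (30.1%) of those in other protein-coding genes. With ACTAAT counted too it was 2 of 6 (33.3%, interval 9.68 to 70.0%), beside 45 of 228 (19.7%) and 34 of 103 (33.0%). Each interval for ARGLU1 contained both shares set beside it.

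The half-site was more frequent in ARGLU1 peaks than the hexamers. TAAC or TAAT lay in 12 of 25 ARGLU1 peaks (48%, 95% Wilson interval 30.0 to 66.5%), beside 37.5% of all nuclear peaks, a share that the interval contains. The 12 were all in intron 2, in 12 of its 17 peaks (70.6%, interval 46.9 to 86.7%). Of the 6 tallest, 5 held at least 1 (95% Wilson interval 43.6 to 97.0%), beside 48.2% of the tallest 1% outside ARGLU1 and 64.1% of those in other protein-coding genes, and the interval contains both shares. Peak 16, of height 63, held the most, with 4 TAAT. ARGLU1 peaks differed from the list in measures that move with the chance of such a short word: their median width was 80 nt against 61 nt, and peaks of intron 2 had a median GC content of 38.9% against 51.4%. The part of width and base composition in the share of peaks was not tested. In intron 2, 19 half-sites began in 1556 positions inside peaks and 9 in 658 positions outside them (odds ratio 0.891, 95% interval 0.382 to 2.25, two-sided Fisher's exact test p = 0.835), which does not show a higher density under the peaks. This comparison was added after seeing the data.

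Over the whole gene, 7 ACTAAC and 13 ACTAAT lay on the RNA strand. The 2 ACTAAC and 1 ACTAAT of intron 2 were all inside peaks, and none of the other 17 was. Peaks covered 69.9% of intron 2. Within that intron alone 2 ACTAAC were inside peaks and 0 outside (two-sided Fisher's exact test p = 1), a comparison added after seeing the data. With only 2 sites, no outcome of that test could have passed 0.05, so nothing is concluded from it. Introns 1 and 3 held 4 ACTAAC, 12 ACTAAT and 217 half-sites. Half-sites stood at 12.6 per kb in intron 2 and 10.4 per kb in introns 1 and 3. Whether their density bears on the crowding of peaks in intron 2 was not tested. Of the positions inside ARGLU1 peaks 2 of 2024 began an ACTAAC, and of those outside 5 of 24237 did. The odds ratio was 4.79 with a 95% interval of 0.456 to 29.3, and the two-sided Fisher's exact test gave p = 0.0962, which does not pass 0.05. Positions along 1 gene are not independent replicates, so this p describes the gene and not a repeated experiment. On the opposite strand 0 of 2024 positions inside and 5 outside began an ACTAAC. The 95% interval of that odds ratio, 0 to 13.1, contains 4.79, so with so few sites the strand cannot serve as a control.

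Among genes, ARGLU1 ranked higher by its tall peaks than by its number of peaks. Of 20163 protein-coding genes, 4750 had at least 1 peak, with a median of 2, and 111 had more peaks than ARGLU1. At least 1 peak of the tallest 1% was found in 82 genes and at least 2 in 15, and 1 gene model, ENSG00000285920, had more than ARGLU1. These counts go by the span of protein-coding gene models, so a counted peak may also lie in another gene, coding or not. ARGLU1 had 0.945 peaks per kb, beside a median of 0.240 over the 193 genes with at least 20 peaks, and 14 of these genes were denser. The heights that chose the gene also set these ranks.

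The 5 genes nearest to ARGLU1 in their number of peaks among the tallest 1% were MICAL3, ENSG00000285920, KLC1, DVL3 and ENSG00000256500. MICAL3, which encodes an actin-oxidising enzyme, had 6 such peaks of 129 and a greatest height of 693. ENSG00000285920 had 7 of 44 and 560. Its gene model overlaps that of NUSAP1, with which it shares 7 other peaks, 0 of them among the tallest 1%. Its 7 peaks among the tallest 1% all lay in its intron 1, of 46055 nt. Overlaps are given here with protein-coding genes only, so whether these tall peaks belong to a non-coding gene inside that intron was not tested. KLC1, a kinesin light chain, had 5 of 72 and 648, and DVL3, a Wnt signalling adaptor, had 4 of 31 and 582. All 36 peaks of ENSG00000256500 lay in the overlap of its gene model with KLC1, so these are not separate observations. The tallest ARGLU1 peak, at 1136, was higher than any peak of these 5 genes.

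Intron 2 of ARGLU1 was short for its number of peaks. Of 188863 introns of canonical transcripts, 6703 (3.55%) held a peak, and 103 held more than 17. The 116 other introns with at least 17 peaks had a median length of 29418 nt, and the shortest was 2071 nt. Among 115905 introns of at least 1000 nt, 11 were covered by peaks to a greater share than the 69.9% of ARGLU1 intron 2, up to 85.1%. The summed height of 4884 was exceeded in 2 introns, intron 1 of TMEM222, through 1 peak of height 42903, and intron 16 of MICAL3, with 80 peaks. Both introns were named after their values were seen. Intron 2 was also 1 of 10218 introns annotated as kept whole in a retained-intron transcript, of which 152 held a peak, with a median of 1 peak, and 2 held more peaks than ARGLU1 intron 2.

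**Figure D4:**
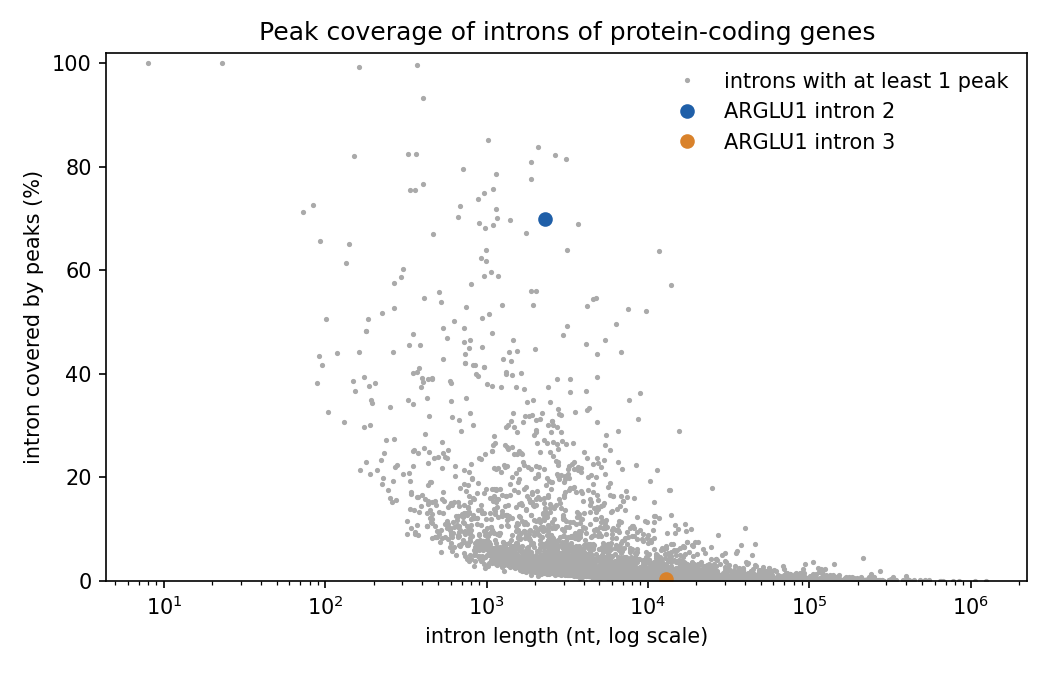
Share of each intron covered by QKI-5 peaks (%) against intron length in nt (log scale) for the 6703 introns of protein-coding genes with at least 1 peak (grey), with intron 2 (blue) and intron 3 (orange) of ARGLU1. Intron 2 lies at 2300 nt and 69.9%, where 11 introns of at least 1000 nt lie higher, while intron 3 lies at 12887 nt and 0.419%. Intron 1, with 0 peaks, is not drawn.

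The SR family of splicing factors was described for comparison. The family, whose own genes are also known for alternative exons that lower their mRNA, was taken here as the 12 SRSF genes with TRA2A and TRA2B. Of these 14 genes 8 (57.1%) had at least 1 peak, beside 23.6% of all protein-coding genes, with 28 peaks in all. The 23.6% is taken over all annotated genes, whether or not these cells held their RNA. RNA levels were not measured here, so these shares do not show a preference for the family. None of the 28 was among the tallest 1%, which with a share of 1.01% over the whole list says nothing about the family. TRA2B had 6 peaks, SRSF11 and TRA2A 5 each, SRSF10 and SRSF3 4 each, SRSF6 2, and SRSF5 and SRSF7 1 each. The greatest height in the family was 59, in SRSF5. The median in ARGLU1 intron 2 was 136, but ARGLU1 was chosen for its tall peaks, so nothing is concluded from this difference. SRSF3 had the only SR family peak with ACTAAC.

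Of 5 genes for known or reported partners of ARGLU1 or early splicing factors, 2 (40%) had peaks, beside 23.6% of all protein-coding genes. NR3C1, the glucocorticoid receptor, had 11 peaks with a greatest height of 42, of which 2 held ACTAAC, and U2AF2, which binds the 3′ splice site, had 5 with a greatest height of 35. MED1, JMJD6 and PUF60 had 0 peaks. The RNA levels of these genes in the cells were not measured here.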

How the data were processed

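The authors trimmed reads with cutadapt 1.3 and mapped them with TopHat2 2.0.10 to hg19 under the iGenomes UCSC annotation (versions from the submitters' processing notes). They collapsed reads that shared a molecular barcode, dropped reads mapped with low quality, merged the technical libraries and called peaks on each strand with MACS2 2.1.1.20160309 against size-matched input. Peak height, the signal deposited by the authors, is an integer for each peak over the merged libraries, comparable only within the list. The filter on mapping quality thins peaks in repeated sequence.

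Positions were read as counted from 0 and are given counted from 1. GRCh37 supplied the sequence, and genes followed GENCODE release 44 as lifted to it. Peaks were assigned by strand and centre, and elements by the canonical transcript. In counts by gene, a peak under overlapping gene models counted for each of them. Peaks said to be in protein-coding genes may also lie in non-coding genes. The 18 mitochondrial peaks were left out of motif counts. Motifs were searched on the RNA strand, and each half-site count includes those within a hexamer. Hexamer start positions inside and outside peaks were compared with a two-sided Fisher's exact test. The counting of positions was checked on simulated sequence with planted hexamers. How often the test passes without a difference was simulated for the half-site only, not for the rarer hexamer. Shares carry 95% Wilson intervals. Depth per library is unknown. Alternatives changed the assignment, merging, motif, window, strand and a height minimum. Named genes were ARGLU1, the SR family, the partners, and the 5 genes nearest in number of tallest peaks. The members and lists were chosen with earlier results of these data known. Python 3.11.15, scipy 1.17.1, numpy 2.4.6, pandas 2.3.3 and matplotlib 3.10.9 were used.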

Additional observations from a re-analysis of the deposited data

How the results depend on the processing

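Of 26 alternative settings for the 5 values compared, 19 were counted as leaving the value much the same. For the shares and the odds ratio this means within the interval or on the same side of the test. The peak count has no interval or test, and its settings among the 19 gave 25 or 21 peaks. With exons of any transcript the intronic share was 4% in place of 72%, since the exon of the retained-intron transcript covers intron 2. When peaks at most 10 nt apart were joined (added after seeing the data), the peak count was 8 in place of 25, the share in intron 2 was 37.5% in place of 68% and the share with ACTAAC was 25% in place of 8%, because fewer and longer regions were counted. The odds ratio for ACTAAC inside against outside peaks, 4.79, was 0 on the opposite strand (exact p = 1), and for TAAC or TAAT, added after seeing the data, it was 0.895 over the gene (exact p = 0.732) and 0.891 in intron 2 (exact p = 0.835). Its other settings gave 2.11 to 6.81 with exact p from 0.0584 to 0.400, and none passed 0.05. For ACTAAC within intron 2 alone, 2 sites were inside and 0 outside peaks, which gives no finite odds ratio (exact p = 1). With only 2 sites that test could not have passed 0.05 whatever the outcome. Joining peaks that overlapped or touched changed nothing, as none did.

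No paired analysis was possible because the single pooled list holds no values by library. The same pooling leaves no replicate error and no library to leave out, so heights and peak positions on ARGLU1 carry no measure of repeatability.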
